A study of Mus musculus with 12 samples.

Results

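The 9 genes described here make, carry, sense or clear retinoic acid. They are the synthesis genes Aldh1a1, Aldh1a2 and Aldh1a3, the binding protein genes Crabp1 and Crabp2, the receptor genes Rara, Rarb and Rarg, and the clearance gene Cyp26b1. The genes were chosen by name, with earlier results of these data known. Counts of called genes beside the share over all genes therefore describe the set and do not test it. The 9 genes are among the 36047 mouse genes to which the transcript counts of 12 RNA-seq libraries were summed. All 9 were among the 18780 genes that passed the filter on low counts.

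The libraries came from cochlear organoids, clusters of epithelial cells that grow from the dissociated cochlear epithelium of 5-day-old (stage P5) mice. Cells were kept in Matrigel for 7 days in expansion medium with EGF, FGF2, the GSK3 inhibitor CHIR99021 and the histone deacetylase inhibitor VPA. Control organoids came from littermates with R26rtTA*M2/+ alone, which makes the doxycycline-dependent transactivator. FST organoids (iFST) carried TRE-FST-288 and R26rtTA*M2/+, LIN28B organoids (iLIN28B) carried Col1a1-TRE-LIN28B and R26rtTA*M2/+, and FST+LIN28B organoids carried both transgenes with R26rtTA*M2/+. Doxycycline at 0.5 μg/ml was given to all 4 conditions, so that control organoids share the drug and the transactivator with the others. Each condition had 3 libraries, which the study's methods take from 3 different animals, and mice of both sexes were used. The transactivator is made from the broadly active Rosa26 locus, so expression of the transgenes was not restricted to 1 cell type of the culture. The catalogue number that the methods give for the B27 supplement is that of the form sold without vitamin A.

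Retinoic acid is made inside cells from vitamin A. Retinol is first oxidized to retinaldehyde by RDH10 and related dehydrogenases, and the ALDH1A enzymes then turn retinaldehyde into retinoic acid, which CRABP proteins hold in the cytoplasm. Receptors of the RAR family sit with an RXR partner on repeated DNA elements and switch from repression to activation when retinoic acid binds, and CYP26 enzymes break the ligand down. In the inner ear, retinoic acid is known for patterning the otic vesicle and for its part in hair cell formation in rodent cochlear cultures.

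The best known receptor target in this group is Rarb itself, so its response element is shown here. Promoter sequences of RefSeq (GRCm38.p6, 250 bases before to 50 bases after a start) matched 7 of the 9 genes, with 12 starts between them. Each was searched on both strands for 2 hexamers in direct repeat with spacers of 1, 2 or 5 bases (DR1, DR2 and DR5). The hexamers were AGGTCA as the consensus, with AGTTCA as a variant of it, then GGGTCA in the same role, and finally GGTTCA too. A match was found at 1 start, that of Rarb, where a DR5 lies 53 to 37 bases before the RefSeq start. The 30 bases round it are chr14:16575506-16575535 on the minus strand, with the hexamers in capitals.
Rarb DR5: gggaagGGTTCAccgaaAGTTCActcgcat
Among 32544 distinct promoters of the same length, 0.0983% held a DR5 of these hexamers, 0.270% a DR2 and 0.224% a DR1. With the same 4 hexamers ending in TGA in place of TCA added, the share with a DR5 was 0.326%, with a DR2 0.473% and with a DR1 0.615%, and none of the other 11 starts gained a match. In the GENCODE annotation Rarb-201 starts at 16575543, upstream of the element, which places the element in the transcribed 5′ end of that form. A match is a description of letters and not of binding.

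LIN28B is known to block maturation of the let-7 microRNAs, whose mouse members share the seed GAGGUAG at bases 2 to 8. The form let-7a-5p is shown with its seed in capitals.
mmu-let-7a-5p: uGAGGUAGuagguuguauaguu
The matching word CTACCTC was in the longest annotated 3′ untranslated region of 1897 of 21020 protein-coding genes (9.02%), and in that of 0 of the 9 genes.

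The libraries held 42742090 to 65292639 estimated counts. The labels fit the targeted genes, as Fst was at 116 to 817 CPM with the FST transgene and 7.72 to 22.5 without it, and Lin28b was at 187 to 480 with the LIN28B transgene and 16.9 to 24.5 without it. CPM are counts scaled to a common library size after TMM normalization. The transgenes are human, so these values combine reads of the mouse gene with transgene reads that match it. FST replicate 2 stood apart, with a correlation of 0.983 to 0.985 (log2 CPM over genes) to the other FST libraries against 0.993 to 0.997 for the other 10 pairs of libraries of 1 condition, and it had the lowest depth and the lowest Fst of the FST libraries. Of 18 markers of inner ear epithelium 17 passed the filter and Pax2 did not. Their summed level was 5418 to 5602 CPM in control, 5618 to 6222 with FST, 3711 to 4109 with LIN28B and 4170 to 4302 with both transgenes, and 2 of them, Otoa and Tecta, were called lower in LIN28B against control. Tecta alone went from a mean of 1631 CPM in control to 281 in LIN28B, while 6 of the 17 had positive log2 fold changes, among them Cldn6 at 133 and 232 CPM (edgeR adjusted p = 0.024) and Cdh1 at 261 and 356 (adjusted p = 0.21). The 10 neuronal markers summed to 14.7 to 18.8 CPM without the LIN28B transgene and 27.2 to 34.7 with it, with Nefl and Nefm called higher in LIN28B against control. Nefm, at a mean of 4.75 CPM in control and 11.1 in LIN28B, carried most of that difference, and Syt1 (1.18 and 1.08 CPM), Elavl3 (1.06 and 0.916) and Stmn2 (0.415 and 0.394) were close in both. The 8 endothelial markers summed to 83.1 to 117 CPM in FST+LIN28B and 23.9 to 60.4 elsewhere, mostly from Tek at a mean of 79.8 CPM against 22.8 in control (edgeR adjusted p = 0.035), while Cdh5 and Cldn5 were at most at a mean of 0.0431 CPM in any condition. The part of these cells in the results was not tested. Since these are bulk samples, fewer cells of a type and less RNA per cell cannot be told apart.

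The order of the genes was set by length-corrected levels (TPM). Aldh1a3 was at 1177 to 1575 TPM over the 12 libraries, Crabp2 at 103 to 229 and Aldh1a1 at 17.9 to 112. The receptor genes followed, with Rarb at 20.3 to 30.9, Rarg at 11.5 to 32.1 and Rara at 14.9 to 26.0, and their ranges overlap. Aldh1a2 (1.61 to 15.6 TPM), Crabp1 (0.970 to 6.07) and Cyp26b1 (0.348 to 1.19) were the lowest. Within its family, Aldh1a3 made up 97.6% ± 0.71 (SD, n = 3) of the summed TPM of the 3 Aldh1a genes for control, 93.4% ± 2.0 for FST, 96.5% ± 0.95 for LIN28B and 93.8% ± 1.7 with both transgenes, so that the changes described next for Aldh1a1 and Aldh1a2 concern the smaller part of the family's RNA.

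**Figure D1:**
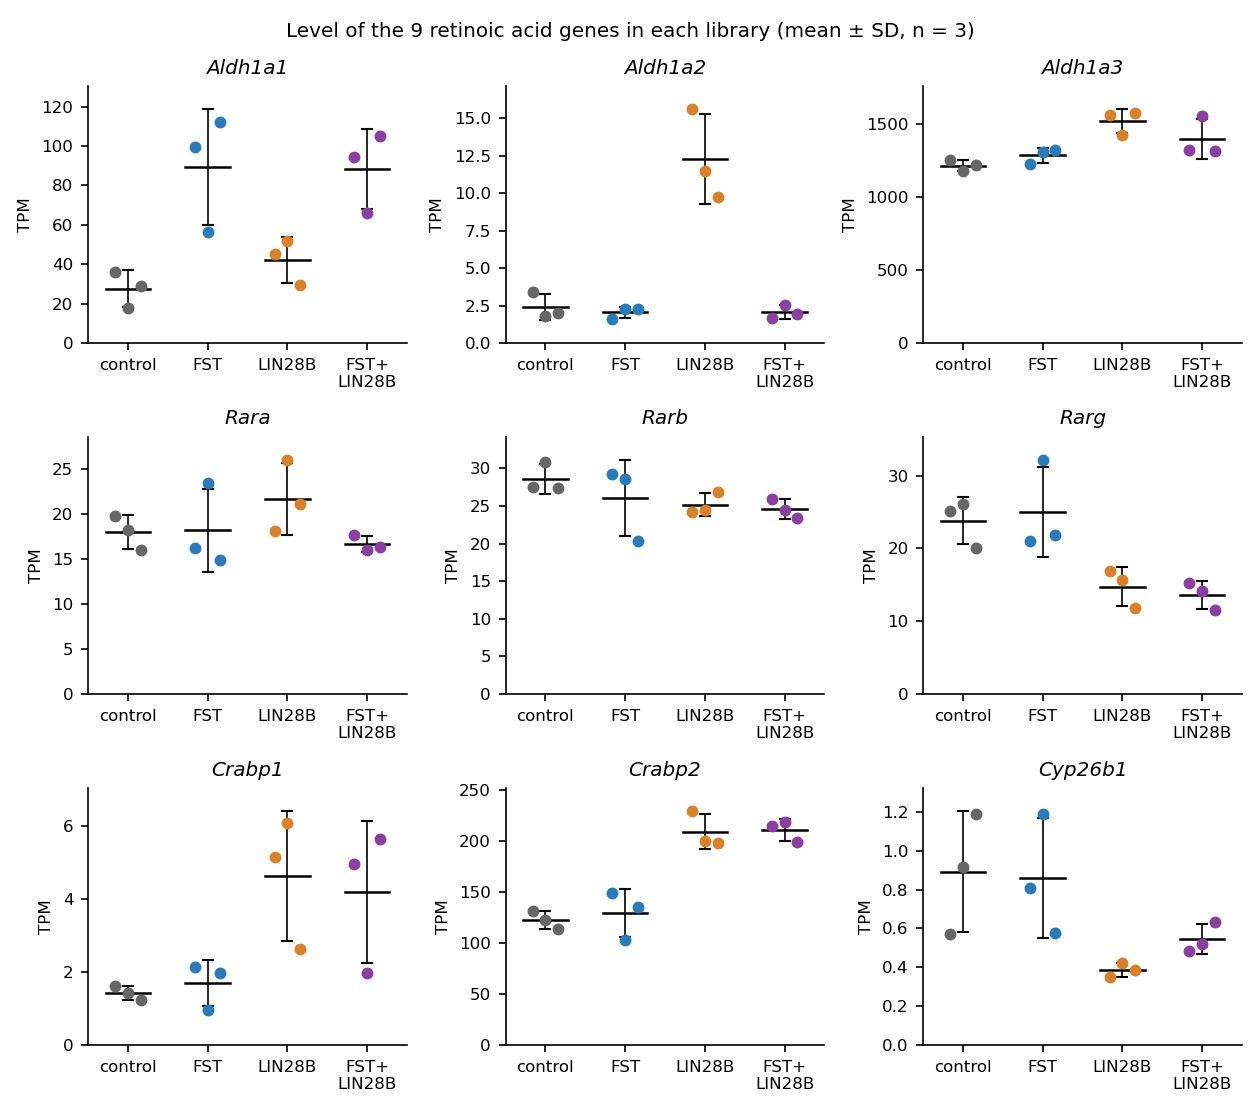
TPM of each of the 9 genes (vertical axis, from 0, a scale of its own in each panel) in the 3 libraries of each condition (points), with the mean (line) and SD (bar). Aldh1a2 is at 9.78 to 15.6 TPM in LIN28B and at 1.61 to 3.43 in all other libraries, Aldh1a1 is at 56.2 to 112 TPM with the FST transgene and at 17.9 to 52.0 without it, and Rarg and Crabp2 separate the libraries by the LIN28B transgene.

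The comparisons ask what FST and LIN28B, alone and together, do to the transcriptome of P5 organoids. Differences were tested with edgeR's quasi-likelihood test on the counts of all 12 libraries, with calls made below an adjusted p (Benjamini-Hochberg, over the 18780 genes) of 0.01. In LIN28B against control, 2 of the 9 genes were called, Aldh1a2 higher and Rarg lower, where 3.43% of all tested genes were called (2.10% higher and 1.33% lower). None of the 9 was called by edgeR in FST against control, a comparison with 0.0213% of all genes called, while 1 of the 9, Aldh1a1, was at an unadjusted p under 0.05 and was called by DESeq2. Over all genes edgeR called 4, DESeq2 68, and 702 were at an unadjusted p under 0.05. Fst itself missed the threshold there with a log2 fold change of 4.94 (SE 0.54, edgeR adjusted p = 0.011). In FST+LIN28B against control, Rarg was called lower (1.26% of all genes called, 0.793% higher and 0.463% lower). Against LIN28B alone, Aldh1a2 was called lower in FST+LIN28B (0.506% of all genes, 0.218% higher and 0.288% lower), and against FST alone Rarg was called lower (0.953% of all genes, 0.570% higher and 0.383% lower). The test of any difference among the 4 conditions called Aldh1a2, Rarg and Crabp2 (5.03% of all genes). No member was called for the interaction, the test of whether the effect of LIN28B differs with and without FST, for which edgeR called 1 gene (0.00532%), DESeq2 33, and 672 were at an unadjusted p under 0.05. Among the members, 1 was at an unadjusted p under 0.05 there and called by DESeq2, Aldh1a2.

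The 3 libraries of LIN28B and of control did not overlap in CPM for 6 of the 9 genes, where 36.6% of all tested genes did not overlap. This count was 1 of 9 in FST against control (7.65% of all genes), 5 of 9 in FST+LIN28B against control (30.3%), 3 of 9 against LIN28B (17.5%) and 2 of 9 against FST (16.6%). The median log2 fold change of the 9 genes was 0.30 in LIN28B against control, 0.06 in FST against control and 0.05 in FST+LIN28B against control, beside medians over all genes of -0.03, 0.04 and -0.01.

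**Figure D2:**
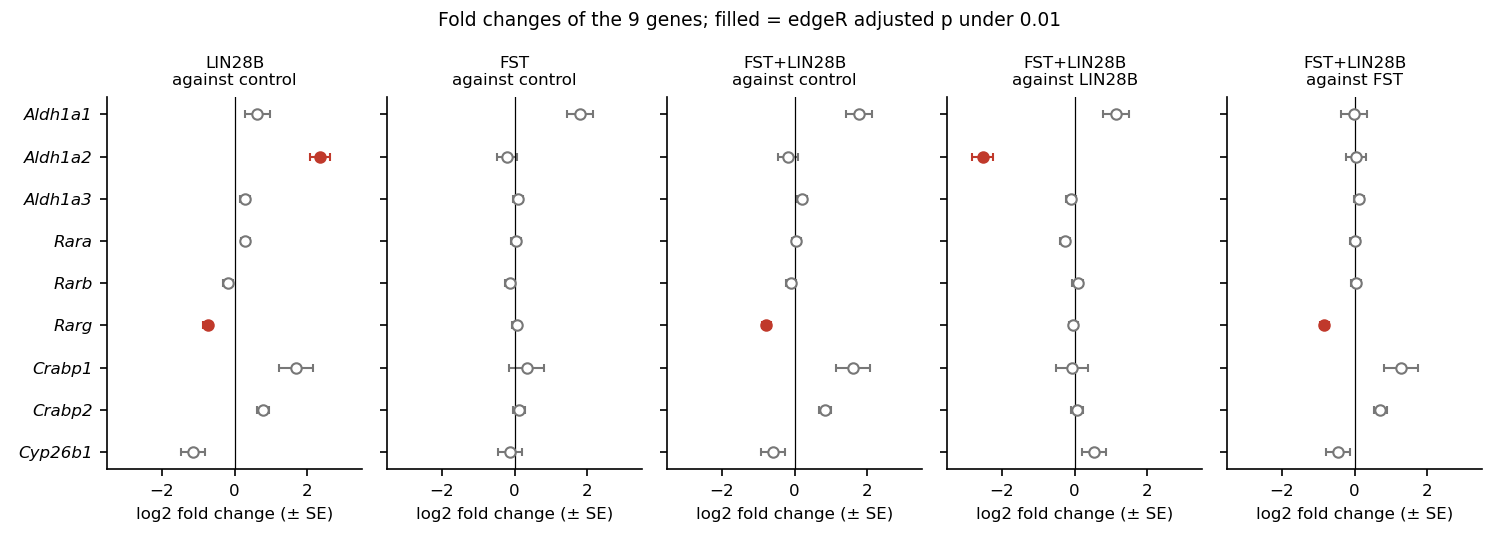
Log2 fold change (horizontal axis) and SE (bar) of each gene in the 5 comparisons between 2 conditions, from the edgeR fit of all 12 libraries. Filled points passed an adjusted p under 0.01, namely Aldh1a2 at 2.35 in LIN28B against control and -2.53 in FST+LIN28B against LIN28B, and Rarg at -0.74, -0.78 and -0.83 where LIN28B was added with or without FST.

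Aldh1a2 encodes RALDH2, the main retinoic acid-making enzyme of the early mouse embryo. Control replicates 1 to 3 held 4.64, 2.52 and 2.73 CPM, whereas LIN28B replicates held 21.5, 15.2 and 14.0. The FST libraries held 2.39, 2.79 and 3.40 CPM and the FST+LIN28B libraries 2.40, 3.67 and 2.70. The LIN28B libraries were thus above all 9 others, and FST+LIN28B overlapped with FST and control. The mean in LIN28B was 5.12 times that in control, and the log2 fold change was 2.35 (SE 0.28, edgeR adjusted p = 0.00052, 3 of 3 libraries above control). From LIN28B to FST+LIN28B Aldh1a2 fell by 2.53 on the log2 scale (SE 0.28, edgeR adjusted p = 0.001). Both calls held in each of the 22 alternative fits, with log2 fold changes of 1.97 to 2.70 and of -2.73 to -2.11. FST alone gave a log2 fold change of -0.21 (SE 0.27, edgeR adjusted p = 1), and the difference between the LIN28B effects with and without FST was -2.32 (SE 0.38), with an edgeR adjusted p of 0.21 and a DESeq2 adjusted p of 1.7e-05. The gene has 1 transcript in the annotation (chr9:71215789-71296243, plus strand, GRCm38), so that no reads were shared among isoforms.

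Because Aldh1a2 is also known from mesenchymal cells, the mesenchyme and fibrocyte markers are given beside it. Dcn and Lum, at means of 816 and 841 CPM in control, make up most of their sum, which therefore says little of the others. The 16 genes summed to 1718 to 1834 CPM for control, 1154 to 2085 for FST, 1571 to 2188 for LIN28B and 1118 to 1640 with both transgenes. None of the 15 that were tested was called by edgeR in LIN28B against control (4 at an unadjusted p under 0.05, 0 with DESeq2) or in FST+LIN28B against LIN28B (2 and 1). The first 4 were Pdgfra (log2 fold change 0.84), Coch (0.79) and Twist1 (0.76), at higher values in LIN28B as Aldh1a2 was, and Col1a2 (-1.62), with edgeR adjusted p of 0.16 to 0.18, and the other 2 were Dcn (-0.54, adjusted p = 0.36) and Prrx1. The lowest p of both comparisons was that of Prrx1, a mesenchymal transcription factor gene, in FST+LIN28B against LIN28B, at -1.40 on the log2 scale (SE 0.28, edgeR adjusted p = 0.034). Prrx1 was at 42.6 ± 11.9 CPM (SD, n = 3) in LIN28B and 16.1 ± 3.17 in FST+LIN28B, and Otos, a marker of fibrocytes, was at a mean of 0.0490 to 0.109 CPM in the 4 conditions. Between 5 and 7 of the 16 markers had a mean under 1 CPM in each condition. What share mesenchymal cells have in the result was not tested.

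Aldh1a1 encodes RALDH1, another retinaldehyde dehydrogenase. It stood at 43.8, 21.2 and 34.4 CPM in control replicates 1 to 3 and at 132, 61.2 and 150 in FST. The LIN28B libraries gave 55.7, 60.9 and 37.3 CPM and the FST+LIN28B libraries 123, 84.4 and 131. All 6 libraries with the FST transgene were therefore above all 6 without it, although FST replicate 2, at 61.2 CPM, was next to LIN28B replicate 2, at 60.9. Within each condition with the FST transgene, the library with the lowest Aldh1a1, replicate 2, was also the one with the lowest Fst (116 CPM in FST, 334 CPM in FST+LIN28B). The highest libraries did not match, as Fst was highest in replicate 1 (445 and 817 CPM) and Aldh1a1 in replicate 3 (150 and 131 CPM). The log2 fold change of Aldh1a1 was 1.79 (SE 0.36, edgeR adjusted p = 0.19) in FST against control and 1.77 (SE 0.36, adjusted p = 0.024) in FST+LIN28B against control. These did not pass the threshold with edgeR, whereas DESeq2 gave adjusted p of 2.7e-05 and 3.2e-06. Without FST replicate 2 the edgeR adjusted p in FST+LIN28B against control was 0.0085. LIN28B alone gave 0.63 (SE 0.35, adjusted p = 0.36), and adding LIN28B to FST gave -0.02 (SE 0.35, adjusted p = 0.98).

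The neighbouring Aldh1a7 is a near copy of Aldh1a1, so kallisto may divide reads between them. Of all words of 31 bases in Aldh1a1-201, 13.9% are also in Aldh1a7-201. Aldh1a7 stood at 20.7, 18.6 and 30.0 CPM in control and at 45.8, 45.6 and 59.4 in FST, a log2 fold change of 1.12 (SE 0.21, edgeR adjusted p = 0.12). With both genes summed into 1, none of the calls of the 9 genes was different.

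Aldh1a3 encodes RALDH3, the enzyme of this family with by far the most RNA in these organoids. Its lowest, median and highest levels are close in all conditions: 2232, 2376 and 2396 CPM for control, 2184, 2512 and 2741 for FST, 2473, 2882 and 3227 for LIN28B, and 2443, 2595 and 3004 with both transgenes. The LIN28B libraries were above the control libraries, but the difference of 0.29 on the log2 scale (SE 0.14, edgeR adjusted p = 0.25) was not called. Aldh1a3-201 carried 88.5% to 94.8% of the gene's estimated counts in every library.

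CRABP2 carries retinoic acid to its nuclear receptors. Crabp2 was at 65.2, 64.0 and 56.7 CPM in control and at 81.7, 46.4 and 74.2 in FST. LIN28B replicates reached 117, 97.3 and 105 CPM, and FST+LIN28B replicates 114, 116 and 102. The 6 libraries with the LIN28B transgene lay above the 6 without it, with no overlap. The test of any difference called it (edgeR adjusted p = 0.0092), whereas each single comparison missed 0.01: 0.78 (SE 0.17, adjusted p = 0.015) in LIN28B against control, 0.84 (SE 0.17, 0.018) in FST+LIN28B against control and 0.71 (SE 0.17, 0.043) in FST+LIN28B against FST. Without FST replicate 2 the edgeR adjusted p of the first 2 were 0.00037 and 0.00043, at the same log2 fold changes, and DESeq2 gave 0.00038 and 0.00019. FST added to LIN28B left Crabp2 at 0.06 (SE 0.17, adjusted p = 1).

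Its relative CRABP1, which is known to hold retinoic acid in the cytoplasm and to steer it towards breakdown, had few counts. Crabp1 was at 0.671, 0.612 and 0.513 CPM in control, or 31 to 40 counts, and at 0.974, 0.367 and 0.909 in FST. LIN28B libraries gave 2.18, 2.46 and 1.16 CPM and FST+LIN28B libraries 2.19, 0.869 and 2.40, or 46 to 148 counts over both. The libraries with LIN28B were above all control libraries, but FST+LIN28B replicate 2 lay below FST replicates 1 and 3. The log2 fold changes of 1.69 (SE 0.46, edgeR adjusted p = 0.043) in LIN28B and 1.60 (SE 0.46, 0.083) in FST+LIN28B were not called with edgeR. DESeq2 called Crabp1 in LIN28B against control (adjusted p = 0.0048), as did edgeR on those 6 libraries alone (0.0075). Crabp2 made up 97.1% to 99.1% of the summed TPM of both binding protein genes in all libraries.

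Among the receptor genes, Rarg was called. RARγ is known for its roles in skin and the skeleton. Rarg was at 19.9, 23.0 and 19.7 CPM in control and at 20.6, 21.7 and 22.8 in FST. The LIN28B libraries held 12.6, 13.0 and 11.9 CPM, and those with both transgenes 14.4, 11.4 and 10.8. The conditions with and without LIN28B did not overlap, and within each side the libraries with and without FST overlapped. Rarg fell by 0.74 on the log2 scale in LIN28B against control (SE 0.12, edgeR adjusted p = 0.0036), by 0.78 in FST+LIN28B against control (SE 0.12, 0.0051) and by 0.83 in FST+LIN28B against FST (SE 0.12, 0.0046). These 3 comparisons share libraries, and FST+LIN28B against LIN28B gave -0.04 (SE 0.12, adjusted p = 1). The calls are close to the threshold. In LIN28B against control the call was lost without any one of the 3 control or the 3 LIN28B libraries (log2 fold change -0.77 to -0.65, edgeR adjusted p 0.012 to 0.029), with length-scaled counts (-0.66, adjusted p 0.03) and with limma on log2(TPM + 1) or log2(TPM + 0.1) (adjusted p 0.058 and 0.054). In FST+LIN28B against control it was lost without any one of the 3 control libraries, LIN28B replicate 1 or FST+LIN28B replicates 2 and 3 (-0.82 to -0.69, adjusted p 0.01 to 0.036), with length-scaled counts (0.032), both limma fits (0.057 and 0.052) and the 6 libraries alone (0.012). Against FST it was lost without control replicates 1 or 3, FST replicates 1 or 3, LIN28B replicate 1 or FST+LIN28B replicates 2 or 3 (-0.85 to -0.74, adjusted p 0.01 to 0.027), and by the same 4 other fits (0.029, 0.05, 0.046 and 0.068). Both FST+LIN28B calls were also lost in the fit with a replicate block.

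The difference was not even over the transcripts of Rarg, whose main forms start at separate promoters. Rarg-201 starts at chr15:102257517 on the minus strand and Rarg-202 about midway along the gene, at 102246500. The 150 bases before each RefSeq start are shown so that the separate starts can be compared, as chr15:102257523-102257672 and chr15:102246501-102246650 on the minus strand. No DR1, DR2 or DR5 of the hexamers searched was in either, so no letters are in capitals.
Rarg-201 start: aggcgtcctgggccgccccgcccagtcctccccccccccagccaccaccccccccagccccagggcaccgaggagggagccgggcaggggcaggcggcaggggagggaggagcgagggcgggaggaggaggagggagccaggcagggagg
Rarg-202 start: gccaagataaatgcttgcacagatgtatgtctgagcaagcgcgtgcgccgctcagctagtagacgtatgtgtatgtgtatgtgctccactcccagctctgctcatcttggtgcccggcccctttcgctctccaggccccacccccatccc
Rarg-201 was at 6.09, 7.93 and 6.59 TPM in control replicates 1 to 3 and at 5.88, 7.96 and 7.74 in FST. LIN28B replicates held 3.47, 3.25 and 2.55 TPM and FST+LIN28B replicates 2.99, 2.78 and 2.13, so that all 6 libraries with LIN28B were below all 6 without it. Rarg-202 was at 4.13, 3.61 and 3.65 TPM for control, 4.02, 4.95 and 3.10 for FST, 3.20, 3.91 and 3.63 for LIN28B, and 4.37, 2.92 and 3.73 with both transgenes, and all conditions overlapped. The share of Rarg-201 in the gene's estimated counts was 59.9% ± 4.9 (SD, n = 3) for control, 61.0% ± 5.7 for FST, 44.9% ± 5.0 for LIN28B and 40.9% ± 4.9 with both transgenes. Transcript shares rest on how kallisto assigns reads that both forms share, and they were not tested.

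**Figure D3:**
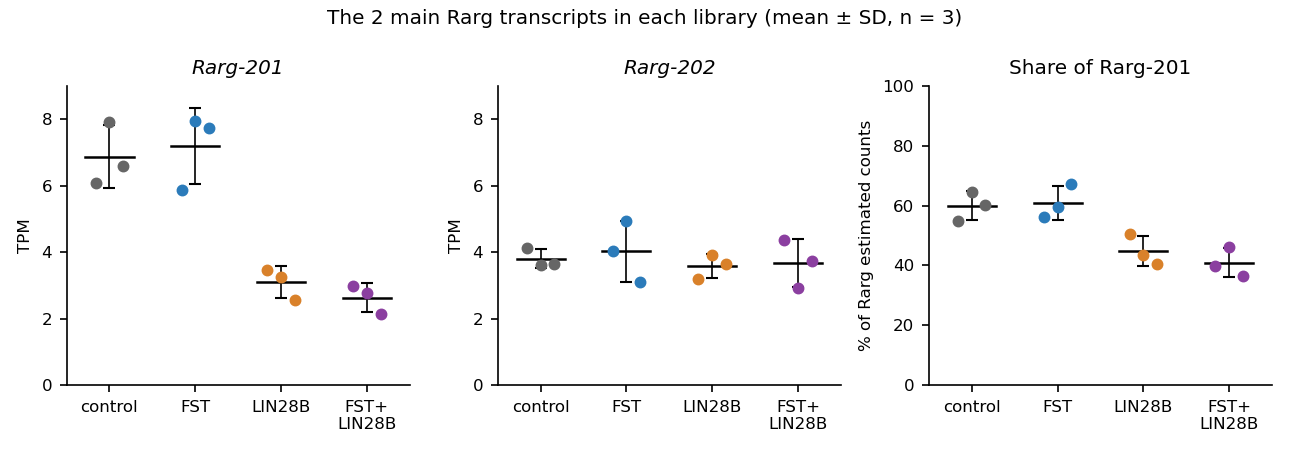
TPM of Rarg-201 (left) and Rarg-202 (middle), and the share of Rarg-201 in the estimated counts of Rarg (right, percent), in the 3 libraries of each condition (points), with mean (line) and SD (bar). Rarg-201 is at 5.88 to 7.96 TPM without LIN28B and 2.13 to 3.47 with it, while Rarg-202 is at 2.92 to 4.95 throughout.

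Rara, the broadly expressed receptor gene, and Rarb, which retinoic acid induces in many cells through the element shown above, were not called in any comparison. Rara was at 28.2, 27.7 and 24.3 CPM for control, 24.9, 32.0 and 25.3 for FST, 27.8, 36.7 and 34.6 for LIN28B, and 29.9, 25.2 and 27.7 with both transgenes. The widest difference was LIN28B against control, at 0.30 (SE 0.13, edgeR adjusted p = 0.21), and these libraries overlapped. Rarb was at 24.0, 29.0 and 26.4 CPM for control, 28.4, 21.2 and 22.7 for FST, 23.5, 19.9 and 26.5 for LIN28B, and 25.6, 25.3 and 23.2 with both transgenes. All 4 conditions overlap for Rarb in CPM. In TPM, which also depends on the effective lengths, the control libraries (27.4 to 30.9) were above those of LIN28B (24.2 to 26.9) and FST+LIN28B (23.4 to 26.0), and both limma fits on TPM left it uncalled. With edgeR, LIN28B against control was -0.18 (SE 0.14, adjusted p = 0.52). Rarb-201 carried 49.3% ± 2.6 (SD, n = 3) of the Rarb counts in control and 53.0% ± 2.8 in FST+LIN28B. Of the summed TPM of the 3 receptor genes, Rarg made up 33.7% ± 1.8 for control, 36.0% ± 3.8 for FST, 24.0% ± 4.4 for LIN28B and 24.7% ± 2.0 with both transgenes.

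CYP26B1 degrades retinoic acid, and Cyp26b1 was the lowest of the 9 genes in TPM. It had 80 to 192 counts in control (1.34, 2.36 and 3.18 CPM) and 83 to 146 in FST (2.33, 2.59 and 1.40 CPM). In LIN28B it had 47 to 69 counts (0.942, 1.08 and 1.11 CPM), and in FST+LIN28B 76 to 101 (1.38, 1.44 and 1.76 CPM). The LIN28B libraries were below those of every other condition, while FST+LIN28B overlapped with control and FST. LIN28B against control gave a log2 fold change of -1.13 (SE 0.33, edgeR adjusted p = 0.058), which was not called with edgeR or under any alternative that was run.

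Beyond the 9 genes, 4 lists of the pathway were read, which were also chosen with earlier results of these data known. Of 30 genes for retinoid supply and synthesis, 25 were tested, and 1 was called higher in LIN28B against control, Stra6. Over all tested genes 3.43% were called in that comparison (2.10% higher). Stra6 encodes the cell surface receptor that takes up retinol. Stra6 was at 19.7, 18.4 and 18.0 CPM for control, 22.9, 19.3 and 18.1 for FST, 39.9, 51.1 and 35.5 for LIN28B, and 21.9, 15.7 and 20.4 with both transgenes. Like Aldh1a2 it was high in LIN28B alone, with no overlap with the 9 other libraries. The log2 fold change was 1.17 (SE 0.16, edgeR adjusted p = 0.0012) in LIN28B against control and -1.13 (SE 0.16, 0.0035) in FST+LIN28B against LIN28B. The second of these was lost without LIN28B replicates 1 or 2 or any one FST+LIN28B library (-1.24 to -0.97, edgeR adjusted p 0.011 to 0.018). The 25 tested genes had a median log2 fold change of -0.10 in LIN28B against control.

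Rdh10, which makes retinaldehyde and so feeds the ALDH1A step, was called higher in FST+LIN28B against control, as were 0.793% of all tested genes. It was at 104, 59.2 and 67.9 CPM for control, 94.4, 72.7 and 147 for FST, 161, 192 and 172 for LIN28B, and 334, 326 and 192 with both transgenes. All LIN28B and FST+LIN28B libraries were above all others, and the log2 fold change from control was 1.88 (SE 0.30, edgeR adjusted p = 0.0056) in FST+LIN28B and 1.19 (SE 0.29, 0.028) in LIN28B. The call was lost without control replicates 2 or 3, FST replicate 1, LIN28B replicate 1, or FST+LIN28B replicates 1 or 2 (1.73 to 1.89, adjusted p 0.01 to 0.041).

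Of the 3 other clearance genes, 2 were tested. Cyp2s1 was at 3.61 to 4.31 CPM in control and 3.66 to 4.44 in FST, above the 1.66 to 2.57 of LIN28B and the 1.29 to 2.68 of FST+LIN28B. LIN28B against control gave -1.01 (SE 0.28, edgeR adjusted p = 0.044), which edgeR did not call and DESeq2 did. Cyp26a1, a direct target of the receptors in many cells, had 1, 0 and 0 counts for control, 0, 1 and 1 for FST, 4, 7 and 1 for LIN28B, and 77, 13 and 75 with both transgenes. The FST+LIN28B libraries held 165 counts together against 1 in control and 2 in FST, and the ratios per library size were 165 (95% exact interval 29.1 to 6.54e+03) and 79.8 (21.7 to 664), with intervals that cover counting error only. It was called higher in FST+LIN28B against control (edgeR adjusted p = 0.0046) and against FST (0.0075), and not against LIN28B (0.04). Leaving out any one control library or FST+LIN28B replicates 1 or 3 ended the first call (edgeR adjusted p 0.018 to 0.035), and 10 of the 12 single libraries, all but LIN28B replicate 3 and FST+LIN28B replicate 2, ended the second (0.011 to 0.034). Cyp26a1 passed the filter on low counts only through the 3 FST+LIN28B libraries, where it is high, so that a tested difference was built into its being tested. The level there was low, at 1.21, 0.246 and 1.31 CPM.

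All 27 genes for retinoid X receptors, other binding proteins and coregulators were tested, and their median log2 fold change was -0.00 in LIN28B against control. Over all tested genes 3.43% were called there (1.33% lower). The 1 called gene of the 27 was Nr2f1, an orphan receptor known to compete with RAR-RXR pairs for response elements. It was at 247, 273 and 259 CPM for control and 266, 334 and 265 for FST, against 129, 136 and 154 for LIN28B and 188, 186 and 185 with both transgenes. Nr2f1 fell by 0.89 on the log2 scale in LIN28B against control (SE 0.11, edgeR adjusted p = 0.00058), a call that held in all 22 alternatives. The looser threshold of 0.05 among them could not end it. FST+LIN28B against FST gave -0.63 (SE 0.11, edgeR adjusted p = 0.0088), a call that was lost without any one library but FST replicate 2 (-0.67 to -0.60, adjusted p 0.011 to 0.046). Rxra and Rxrb, the partners of the RARs, were at 54.4 to 75.5 and 36.9 to 60.7 CPM over the 12 libraries, Rxrg at 0.415 to 1.04, and none of them was called.

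Among 35 known retinoic acid response genes, 25 were tested. In LIN28B against control 4 were called higher and 0 lower, namely Hoxb4, Meis2, Stra6 and Pbx2, beside 2.10% of all genes called higher. In FST+LIN28B against control there were 4 higher (Cyp26a1, Tbx1, Meis2 and Pbx2; 0.793% of all genes) and 0 lower, and in FST against control 0 in either direction (edgeR; 3 at an unadjusted p under 0.05, 0 with DESeq2). The medians of the 25 were 0.20, 0.05 and 0.03, and DESeq2 called 9 and 7 in the first 2 comparisons, with 1585 and 919 of all 18780 genes. Against FST, FST+LIN28B had 5 called higher (0.570% of all genes), with Hoxb4 beside the last 4. These counts lean on the filter, since Cyp26a1, Hoxb4 and Tbx1 passed it only through conditions with LIN28B. The list is made of targets known from other tissues, and it shares Stra6 and Cyp26a1 with the lists above. Nr2f1, called lower in LIN28B against control, was read only in the list of coregulators and is not counted here. No direction of response was set for the genes, so these counts do not measure a response to retinoic acid. The uncalled genes of the list lay on both sides in LIN28B against control. Those below control included Tgm2 (log2 fold change -1.03, edgeR adjusted p = 0.04), Zfp423 (-0.68, 0.026) and Foxc1 (-0.55, 0.065). Those above control included Fgf8 (2.62, 0.015) and Meis1 (0.63, 0.03).

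Meis2 and Pbx2 encode partners of Hox proteins on DNA. Meis2 was at 27.5, 17.1 and 12.7 CPM for control, 19.5, 21.2 and 27.0 for FST, 99.3, 94.3 and 64.1 for LIN28B, and 92.7, 71.8 and 95.9 with both transgenes. Its log2 fold changes were 2.17 (SE 0.27, edgeR adjusted p = 0.00085) and 2.18 (SE 0.27, 0.0015) from control to LIN28B and to FST+LIN28B, the second lost without control replicate 2 (2.11, adjusted p 0.012). Pbx2 was at 51.0 to 57.0 CPM for control, 43.3 to 59.3 for FST, 85.4 to 97.5 for LIN28B and 83.2 to 106 with both transgenes, with 0.75 (SE 0.13, 0.0038) and 0.79 (SE 0.13, 0.0053). Both Pbx2 calls were lost without any one control library and 3 or 4 of the others (LIN28B replicate 2 and FST+LIN28B replicate 1 in both, LIN28B replicate 1 in the first, FST+LIN28B replicates 2 and 3 in the second), at 0.69 to 0.87 and adjusted p of 0.01 to 0.044.

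Hoxb4 and Tbx1 had few counts. No control or FST library reached the filter's level for Hoxb4, and 1 FST library did for Tbx1, so both were tested only because they are high with LIN28B. Hoxb4 had 3 to 6 counts for control, 1 to 3 for FST, 45 to 115 for LIN28B and 11 to 39 with both transgenes, and its log2 fold change of 4.0 (SE 0.58, edgeR adjusted p = 0.0015) in LIN28B against control was lost without control replicate 3 (3.75, adjusted p 0.013). Tbx1, an otic patterning gene, had 5 to 8, 3 to 12, 18 to 44 and 38 to 105 counts in the same order of conditions. Its log2 fold change was 3.30 (SE 0.53, adjusted p = 0.0052) in FST+LIN28B against control, lost without any one control library or FST+LIN28B replicates 1 or 3 (2.93 to 3.41, adjusted p 0.017 to 0.035). Against FST the values were 3.73 (SE 0.67, 0.0097) for Hoxb4, 3.21 (SE 0.52, 0.0071) for Tbx1, 1.94 (SE 0.27, 0.0039) for Meis2 and 0.82 (SE 0.13, 0.0056) for Pbx2. Leaving out 1 library ended these 4 calls for 10, 10, 4 and 8 of the 12 libraries, among them FST replicate 1 and FST+LIN28B replicates 1 and 3 in every case, with adjusted p up to 0.048.

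**Figure D4:**
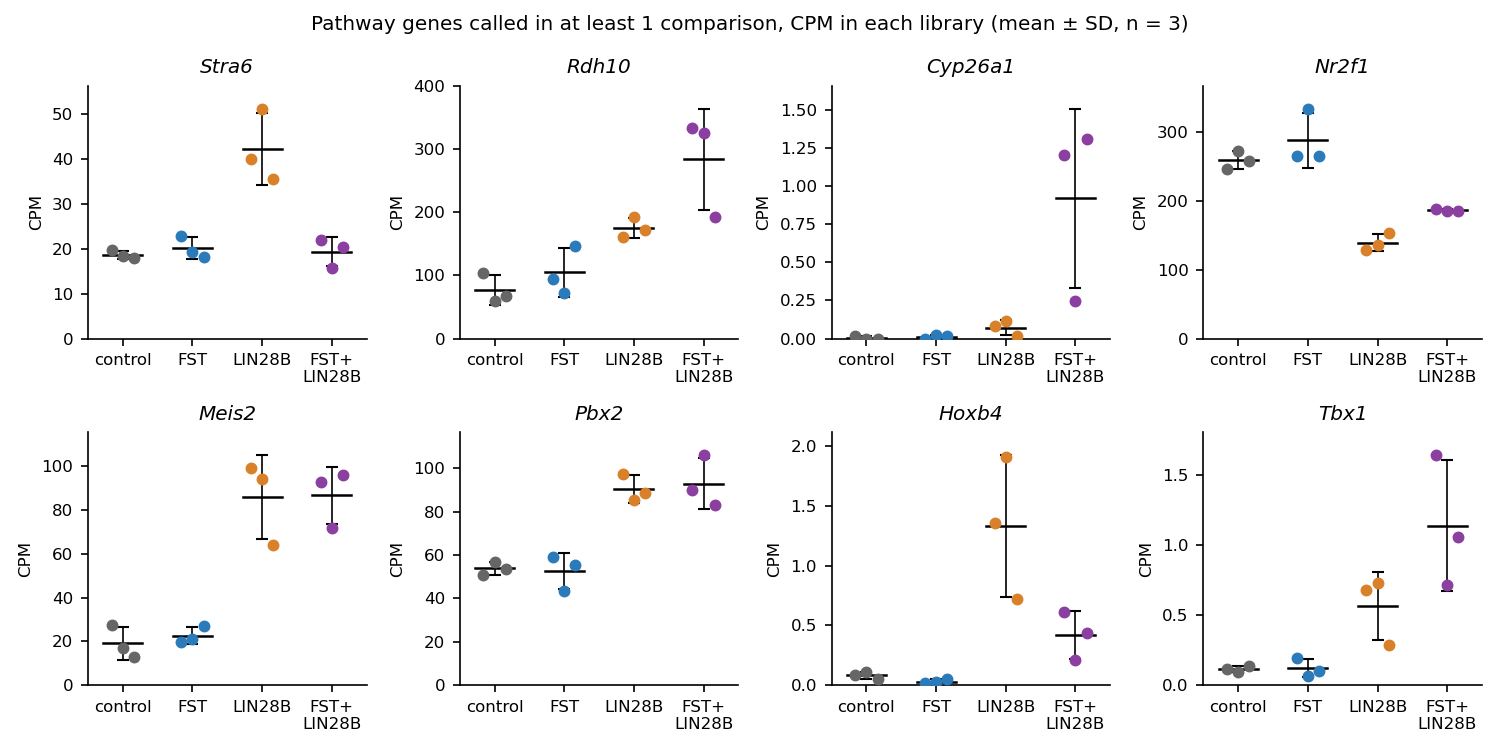
CPM (vertical axis, from 0, a scale of its own in each panel) of the 8 pathway genes called in at least 1 comparison, in the 3 libraries of each condition (points), with mean (line) and SD (bar; a lower end below 0 is cut off). Stra6 and Hoxb4 are highest in LIN28B alone, Rdh10, Cyp26a1 and Tbx1 have their highest values in FST+LIN28B, and Meis2 and Pbx2 are alike in both LIN28B conditions.

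The genes whose pattern over the 12 libraries was most like that of a called member were found by the root mean square difference of centred log2 CPM. The search covered 12251 genes with a mean of at least 2 CPM, and left out genes with the names of predicted genes, clones or pseudogenes. For Aldh1a2 the nearest were Gxylt2 (0.40), Nrp1 (0.41) and Ltbp1 (0.41), where the spread of Aldh1a2 itself was 1.11. Nearest to Rarg were Thsd1 (0.10), Adamts14 (0.13) and Fcgrt (0.14), beside a spread of 0.41. Crabp2 had Nme4 (0.11), Pbx2 (0.12) and B4galt5 (0.12), beside 0.43. Pbx2 is thus the 1 gene of the pathway lists among these neighbours.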

How the data were processed

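Organoid RNA of 12 samples was sequenced by the authors as stranded total RNA in read pairs of 50 bases. Per the submitters' processing notes and the study's methods, reads were pseudo-aligned with kallisto 0.46.1 to the Ensembl v96 mouse transcriptome (GRCm38). The authors deposited estimated counts per transcript with effective lengths, and the study tested them with sleuth. Of 118489 transcripts per table, 116816 matched GENCODE M21 genes, and the rest held 0.543% to 0.598% of the counts. The expected (estimated) counts were summed per gene and rounded. TPM were computed here from counts and effective lengths.

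Groups and replicate numbers came from the sample titles. Genes were tested with edgeR 4.0.16 (TMM, filterByExpr by condition with min.count 10, robust quasi-likelihood, R 4.3.3) in 1 fit of all 12 libraries. Each SE was obtained from the unshrunk log2 fold change and the F statistic. Alternatives were DESeq2 1.42.0, RLE size factors, no filter, length-scaled counts, limma 3.58.1 on log2(TPM + 1) and log2(TPM + 0.1), a replicate block, an adjusted p under 0.05, Aldh1a1 with Aldh1a7 summed, the 2 conditions compared only, and each library left out.

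Named beside the 9 members were pathway genes called in any comparison, at most 4 per list and comparison, the 3 genes most like each called member, with Fst, Lin28b and Aldh1a7. More than 4 response genes were given for FST+LIN28B against FST, and each of them was already named for a comparison with control. The marker genes and the uncalled Cyp2s1, Rxra, Rxrb, Rxrg, Tgm2, Zfp423, Foxc1, Fgf8 and Meis1 were named outside that rule, after their values were seen. The members and lists were chosen with earlier results of these data known. In simulated counts for LIN28B against control (18780 genes), edgeR recovered 0%, 48%, 72% and 88% of 1.5-, 2-, 4- and 8-fold changes with 0 false calls. Only 50 genes were changed at each fold, whereas 644 were called in the data. The counts were drawn gene by gene with the dispersions that edgeR had estimated, and no library was set apart as FST replicate 2 was. These rates and the 0 false calls therefore need not hold for the data. Rates for DESeq2 and limma are not given here.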

Additional observations from a re-analysis of the deposited data

Results flagged for a closer look

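The effect of LIN28B on Aldh1a2 differed with and without FST by -2.32 on the log2 scale (SE 0.38), a difference that the interaction test of DESeq2 called (adjusted p = 1.7e-05) and that of edgeR did not (adjusted p = 0.21). LIN28B against control was 2.35 (SE 0.28) and FST+LIN28B against FST was 0.03 (SE 0.27), and all 3 LIN28B libraries were above the 3 FST+LIN28B libraries. The same test gave -1.23 (SE 0.22) for Stra6, again called by DESeq2 (adjusted p = 0.00057) and not by edgeR (adjusted p = 0.23).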

How the results depend on the processing

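The calls of Aldh1a2 held under all 22 alternatives, though the looser threshold of 0.05 among them could not end a call. No called value changed sign. DESeq2 called 4 members in LIN28B against control (edgeR 2), 1 in FST against control (0), 3 in FST+LIN28B against control (1), 2 in FST+LIN28B against FST (1), 1 for the interaction (0) and 5 for any difference (3), and it called more of all genes as well, for example 1585 against 644 in LIN28B against control, 919 against 236 in FST+LIN28B against control and 789 against 179 in FST+LIN28B against FST. The cause was not tested. Length-scaled counts left 1 member in LIN28B against control, 0 in FST+LIN28B against control and 0 in FST+LIN28B against FST. In FST+LIN28B against FST both limma fits, on log2(TPM + 1) and log2(TPM + 0.1), called 0, and so did the 6 libraries alone (20 genes called in all). With the 2 conditions alone 4 members were called in LIN28B against control. At an adjusted p under 0.05 the counts were 4, 3 and 2 in LIN28B against control, FST+LIN28B against control and FST+LIN28B against FST.

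Same-numbered libraries of different conditions did not deviate together (r -0.33 to 0.18, median 0.03, 18 pairs). Differently numbered ones gave r of -0.23 to 0.25 (median 0.01, 36 pairs). No pairing by number was thus seen, although a correlation over all genes cannot exclude shared litters. With the replicate block 0 members were called in FST+LIN28B against control and 0 in FST+LIN28B against FST, with 134 and 85 of all genes, 2 were called for any difference, and the other comparisons kept their number of member calls.

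Leaving out each library gave 1 to 3 member calls in LIN28B against control, 0 in FST against control, 0 to 3 in FST+LIN28B against control, 1 in FST+LIN28B against LIN28B, 0 to 1 in FST+LIN28B against FST, 0 for the interaction and 2 to 4 for any difference. Low genes had smaller fold changes on the log2(TPM + 1) scale, down to 0.80 for Hoxb4 in LIN28B against control. With 3 libraries a condition, a miss of the threshold does not show that levels were equal.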
